A study of Mus musculus with 3 samples.

Results

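Accessible chromatin near the olfactory receptor (Olfr) genes was examined in DNase-seq peak lists from MEL cells, an immortalized mouse erythroleukemia line blocked at an early step of red cell development. A member was a peak of the biological replicate 1 list whose centre lay in, or within 5 kb of, a protein-coding Olfr gene of the GENCODE M21 basic annotation on chromosomes 1 to 19 (mm10). The rule found 733 peaks among the 269399 on these chromosomes. It used position alone, so scores and overlap with replicate 2 were not part of the choice. The annotation holds 1128 such Olfr genes among 20807 protein-coding genes.

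The data come from 1 untreated condition as far as the labels say, with no genotype, dose or time given, and with developmental stage and age given as unknown. Of 3 libraries, 2 belong to biological replicate 1 (technical replicates 1 and 3) and were merged by the authors before peak calling, and 1 belongs to biological replicate 2. Each biological replicate thus has 1 peak list, no test between samples was possible, and intervals below cover counting error over peaks or genes only. Neighbouring peaks are not independent, since 53.1% of the members had another member within 1000 bp. Each peak carries the authors' score, a whole number of at most 150 whose meaning is not given in the sources used here. Scores rank peaks within a list and do not compare the lists. The depth behind the lists is unknown.

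Olfactory receptors are G protein-coupled receptors that detect odorants on the cilia of olfactory sensory neurons. Their genes form the largest family of receptors in the mouse genome and lie in tandem clusters on many chromosomes. Each neuron transcribes a single allele of a single gene, and the other clusters stay in silent heterochromatin. In those neurons LHX2, EBF and LDB1 act at enhancers inside the clusters. The beta-globin genes, which red cells use, lie inside an Olfr cluster on chromosome 7.

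The labelled cell type was set beside the promoters of marker genes, where a promoter peak was centred within 1000 bp of a protein-coding transcript start. Over all protein-coding genes of these chromosomes, 59.3% had one in replicate 1 and 50.3% in replicate 2. Of 10 erythroid markers, 9 had a promoter peak in replicate 1 and 8 in replicate 2. Slc4a1 was the marker without a peak in either list. Of 10 olfactory sensory neuron markers, only Gnal had a promoter peak, with a score of 71 in replicate 1 and none in replicate 2. Omp, Adcy3, Cnga2, Rtp1 and Lhx2 had none in either list. Of 6 fibroblast markers, 5 had a promoter peak in replicate 1 and 3 in replicate 2.

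The sequences below are from the strongest members that were not at the start of another protein-coding gene, and are shown because most of the scores above 140 in the Olfr clusters came from them. They are on the plus strand of the GRCm38 reference (mm10), 5′ to 3′. Annotated untranslated bases were left out, which shortened the Olfr417 and first Olfr70 entries and removed the Olfr374 site. Capitals mark matches, on either strand, to short words for GATA factors (AGATAA or TGATAA), KLF factors (CCNCNCCC) or the LHX2 homeodomain (TAATTA or TAATGA). AP-1 (TGANTCA), CTCF (CCANNAGGG) and EBF (CCCNNGGG) words were searched too and had no match in these stretches.
Olfr417 upstream, chr1:174365096-174365121: agccctataacTAATGAgaacaaatt
Olfr288 site A, chr15:98181396-98181545: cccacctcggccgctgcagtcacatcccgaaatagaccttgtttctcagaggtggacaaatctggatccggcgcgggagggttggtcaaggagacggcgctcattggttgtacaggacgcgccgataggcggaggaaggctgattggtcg
Olfr288 site B, chr15:98181196-98181345: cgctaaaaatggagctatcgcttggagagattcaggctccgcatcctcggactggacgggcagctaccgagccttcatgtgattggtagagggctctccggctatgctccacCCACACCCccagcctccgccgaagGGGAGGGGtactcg
Olfr279 site, chr15:98506356-98506505: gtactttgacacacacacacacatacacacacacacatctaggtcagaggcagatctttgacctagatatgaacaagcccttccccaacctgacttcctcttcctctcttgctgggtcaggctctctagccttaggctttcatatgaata
Olfr70 site A, chr4:43694676-43694783: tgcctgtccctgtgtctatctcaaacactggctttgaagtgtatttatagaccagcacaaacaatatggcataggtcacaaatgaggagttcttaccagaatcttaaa
Olfr70 site B, chr4:43693956-43694105: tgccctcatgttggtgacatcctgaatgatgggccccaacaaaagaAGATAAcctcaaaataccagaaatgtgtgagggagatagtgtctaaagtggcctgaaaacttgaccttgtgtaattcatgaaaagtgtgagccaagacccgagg
Olfr718-ps1 site, chr5:143133056-143133205: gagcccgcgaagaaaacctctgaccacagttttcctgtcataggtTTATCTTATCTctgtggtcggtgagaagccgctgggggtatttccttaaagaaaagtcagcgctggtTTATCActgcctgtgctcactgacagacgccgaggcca

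The highest score of all members, 149 in replicate 1 and 74 in replicate 2, belonged to a peak at the start of Olfr417 on chromosome 1. Its centre lay 49 bp downstream of that start, in a hotspot of 3293 bp, a hotspot being a wider enriched region called by the authors. The stretch shown ends at the base before the annotated start and holds the word TAATGA. The whole peak also holds a GATA word, which is not in the stretch shown. Another peak of this gene, centred 749 bp past the start, had no partner in replicate 2. The nearest start of a protein-coding gene outside the family, Mptx1, was 34.7 kb away.

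Beyond the end of Olfr288 on chromosome 15, a pair of peaks in 1 hotspot of 2030 bp scored 148 and 147 in replicate 1. Replicate 2 gave them 94 and 69, and the 94 was the highest replicate 2 score among members. They were 60.0% and 61.3% GC with 13 and 10 CpG dinucleotides, against a median GC of 45.3% for all members. The nearest start of a protein-coding gene outside the family, of Ccdc184, was 14.3 kb and 14.1 kb away. Site B holds 2 KLF words and site A none of the words searched. At the other end of the same cluster a peak 3794 bp beyond Olfr279 scored 144 and 86, without a CpG and without any of these words.

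Olfr70 on chromosome 4 had a pair of peaks just beyond its end, centred 33 bp and 753 bp outside the gene. They scored 148 and 144 in replicate 1 and 73 and 61 in replicate 2, inside a hotspot of 3044 bp. Site B holds 1 AGATAA word. On chromosome 5 the peak 883 bp beyond Olfr718-ps1, annotated as protein-coding in spite of its name, scored 143 and 54 and holds 3 GATA words, of which 2 overlap. Olfr718-ps1 stands alone, with no other Olfr gene within 500 kb, and 5 of its 7 members were overlapped by replicate 2.

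Among the 10 highest replicate 2 scores was also a peak in an exon of Olfr374 on chromosome 8, with 140 and 77, in annotated untranslated sequence. Its centre was also 143 bp from the start of Gm24747, annotated as an rRNA gene. A peak between genes, 2790 bp beyond the end of Olfr750 on chromosome 14, scored 127 and 65. It was the only peak with a replicate 2 partner among 8 near this gene that scored 100 or more over 7.01 kb. Of the 23 members scoring 100 or more that replicate 2 lacked, the other 7 peaks near Olfr750, at 109 to 127, were the largest group. Olfr56 followed with 4, Olfr1359 with 3 and Olfr417 with 2, and the remaining genes had 1 each. These groups were singled out after their values were seen. The 23 were among 110 members with such scores, and strong peaks without a partner were also common elsewhere. In the band of 25 score units above 100, replicate 2 overlapped 61.8% of other peaks of chromosomes 1 to 19 and 74.6% of members. In the 25 score units up to 150, replicate 2 overlapped 93.4% of other peaks and 85.4% of members.

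A few other strong members coincided with starts of genes that are not receptors. The peak counted to Olfr1416 (143 and 59) was centred 11 bp from the start of Ndufa10, which encodes a subunit of respiratory complex I. The peak counted to Olfr15 (142 and 74) was 97 bp from the start of Zfp174, a zinc finger gene. The peak counted to Olfr311 (142 and 83) was 47 bp from the start of Gm12258. Of the 52 members scoring 120 or more, 6 (11.5%, Wilson 95% interval 5.40 to 23.0%) were within 1000 bp of such a start. Over all peaks of chromosomes 1 to 19, 15076 of the 47438 scoring 120 or more were. Among all 733 members, 16 (2.18%) were, against 12.4% of the other peaks. These shares of members were lower than those of peaks in general. The position rule keeps peaks near Olfr genes and so itself limits starts of other genes, which makes this a description only. Olfr starts were not counted here, and 162 members (22.1%) were at one.

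Across all members, scores were low. The median replicate 1 score was 47 (95% interval 44 to 50), the quartiles were 28 and 80, and the range was 6 to 149. The median over all peaks of chromosomes 1 to 19 was 74. Scores of 100 or more belonged to 110 members (15.01%), against 30.8% of all peaks. In the replicate 2 list, 174 peaks met the same position rule, with a median of 21 (18 to 25) against 32 over that whole list on these chromosomes. In bulk DNase-seq a low value cannot tell a site open in fewer cells from a site less accessible in each cell.

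A replicate 2 peak overlapped 174 of the 733 members by at least 1 bp (23.7%, Wilson 95% interval 20.8 to 27.0%). The share over all replicate 1 peaks of these chromosomes was 30.3%. In the other direction 162 of the 174 replicate 2 peaks near Olfr genes (93.1%) were overlapped by replicate 1. The overlapped members had a median replicate 1 score of 99.5, and the others 38. Over these 174 members the scores of both lists ranked alike (Spearman's rho 0.91, Pearson's r 0.83), a description across peaks that share libraries.

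The comparison depended on score. Members scoring 25 or less were overlapped in 1.23% of cases (0.337 to 4.36%) and other peaks with such scores in 1.26%. For scores of 26 to 50 the counts were 9 of 237 members (2.01 to 7.06%) and 1.66% of other peaks. Members scoring 51 to 75 were overlapped in 25.4% of cases (18.5 to 33.8%), against 7.01% of other peaks with those scores. For scores of 76 to 100 the shares were 45.6% (36.3 to 55.2%) and 27.9%. In the band of 25 score units above 100 they were 74.6% (63.1 to 83.5%) and 61.8%. In the 25 score units up to 150 members were below the others, at 85.4% (71.6 to 93.1%) against 93.4%. Other peaks weighted to the single scores of the members gave 16.1%. In the 4 bands between these ends the share of the other peaks lay below the interval of the members, although over all scores members were overlapped less often.

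**Figure D1:**
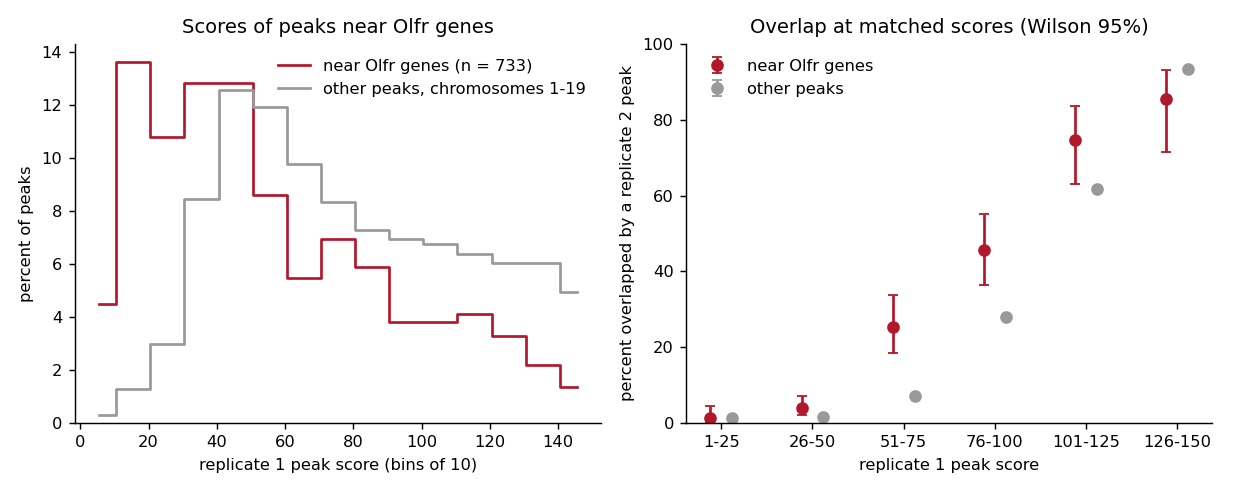
Left, percent of replicate 1 peaks in bins of 10 score units for the 733 peaks near Olfr genes (red) and other peaks of chromosomes 1 to 19 (grey). Right, percent overlapped by a replicate 2 peak in bands of replicate 1 score, with Wilson 95% intervals. Peaks near Olfr genes are in excess up to a score of 40, and their share overlapped lies above that of other peaks in the 4 middle bands.

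Many of the lowest scores came in tight runs. Scores of 25 or less belonged to 163 members (22.2%), against 2.57% of other peaks. A run was defined, after these values were seen, as 10 or more neighbouring peaks that all score 25 or less with centres at most 10 kb apart. There were 157 runs on chromosomes 1 to 19, and 7 of them held 136 members (18.6%). Among other peaks 0.979% lay in runs. No peak of these 7 runs was overlapped by replicate 2, whereas 174 of the 597 members outside them (29.1%) were. This contrast follows largely from the score limit. Of all peaks scoring 25 or less, only 1.23% of members and 1.26% of others were overlapped.

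The run with the most members held 28 peaks over 19.6 kb at Olfr1040, Olfr1042 and Olfr1043 on chromosome 2, all members, scoring 7 to 16. A neighbouring run at Olfr1039 had 19 peaks over 10.4 kb, of which 10 were members. On chromosome 11 a run at Olfr318, Olfr319 and Olfr320 had 36 peaks over 27.9 kb, 27 of them members, with scores of 5 to 25. Runs at Olfr1375 and at Olfr51 and Olfr54, also on chromosome 11, held 20 and 17 members. On chromosome 7 runs at Olfr651 and Olfr17 held 18 and 16. In the Olfr1375 and the Olfr51 and Olfr54 runs the median member had 68.9% and 67.2% of its 32-bp words unique in the genome, and in the other 5 runs 100%. The part of repeated sequence in these runs was not tested.

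Without the runs, chosen as an alternative after seeing the data, the median member score was 56 and the share overlapped was 29.1%, close to the 30.6% of all peaks outside runs. All peaks outside runs had a median of 74. Because a run is defined by low scores, and few peaks with such scores were overlapped anywhere, leaving runs out had to raise both values, and they are given as a description. Among members outside runs 18.4% scored 100 or more.

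Peaks were sparse around Olfr genes. The genes with 5 kb to each side covered 16.8 Mb and held 43.7 replicate 1 peaks per Mb (exact Poisson 95% interval 40.6 to 46.9). Around other protein-coding genes there were 160.8 per Mb and over the whole of these chromosomes 109.4 per Mb. In the replicate 2 list the same footprints held 10.4 (8.88 to 12.03), 53.4 and 34.8 peaks per Mb. The footprint of Olfr genes thus had 0.27 of the density around other genes in replicate 1 and 0.19 in replicate 2.

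The density changed little with distance up to 10 kb and then rose. It was 45.2 per Mb inside Olfr genes, 42.7 within 1 kb of them, 47.2 from 1 to 2.5 kb, 38.9 from 2.5 to 5 kb and 46.5 from 5 to 10 kb. From 10 to 25 kb it was 80.7 and from 25 to 50 kb it was 149.0 (138.1 to 160.5). The median score was between 38 and 57 up to 10 kb and was 75 and 70 in the outer distances. The share of peaks at the start of another protein-coding gene rose with distance too, from 1.77% inside Olfr genes to 19.5% at 25 to 50 kb, and its part in the rise was not tested. The peaks just inside the 5 kb limit lay at 4937, 4976 and 4979 bp near Olfr371, Olfr1423 and Olfr12 and scored 42, 90 and 140. Those just outside lay at 5017, 5018 and 5047 bp near Olfr713, Olfr1359 and Olfr525 and scored 86, 110 and 41.

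**Figure D2:**
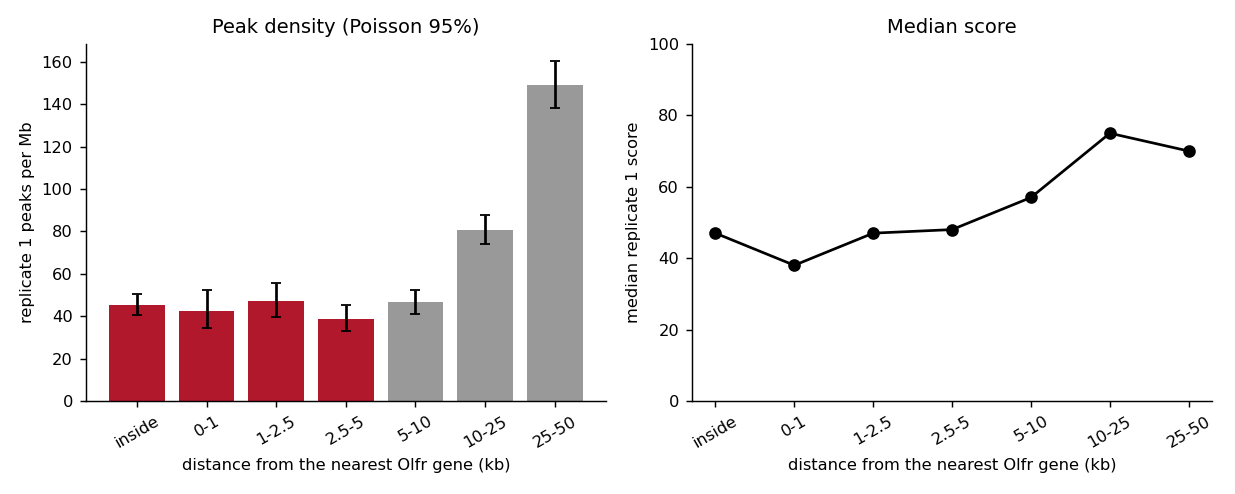
Left, replicate 1 peaks per Mb by distance in kb from the nearest Olfr gene, with exact Poisson 95% intervals; red bars are within the 5 kb limit and grey bars beyond it. Right, median replicate 1 score of the same peaks. Density stays between 38.9 and 47.2 per Mb out to 10 kb and reaches 149.0 at 25 to 50 kb.

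As a whole, the Olfr promoter windows were no denser in peaks than the sequence around them. Of the members, 162 (22.1%, 19.3 to 25.3%) were at an Olfr promoter, 15 at the start of another gene, 100 in an Olfr exon, 112 in an Olfr intron, 12 in the body of another gene and 332 (45.3%) between genes. Olfr promoter windows held 40.05 peaks per Mb (34.1 to 46.7) and the rest of the Olfr footprint 44.8 (41.2 to 48.6). Around other protein-coding genes the promoter windows held 708.2 per Mb and the rest 136.6. In replicate 2 the Olfr values were 9.64 (6.86 to 13.2) and 10.6 (8.88 to 12.5).

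The share overlapped by replicate 2 was 23.5% at Olfr promoters, 19 of 100 in Olfr exons, 25.9% in Olfr introns and 23.2% between genes, with overlapping Wilson intervals. It was 40.0% (6 of 15) at starts of other genes, with an interval of 19.8 to 64.3%. Median scores were 44 at Olfr promoters, 45 in exons, 53.5 in introns and 45.5 between genes, against 108 at starts of other genes. Coding exons of Olfr genes held 61 members (8.32%), of which 14 were overlapped.

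By distance from the nearest Olfr start, the 500 bp just downstream held 64 members, of which 20 were overlapped and 8 scored 100 or more. The 500 bp just upstream held 42, of which 8 were overlapped and 2 scored 100 or more. Bins near starts cover more sequence than bins far from them, so counts were divided by the length of Olfr footprint in each bin. The density was 61.1 per Mb (47.0 to 78.0) just downstream and 40.1 (28.9 to 54.2) just upstream. It was 25.7 (16.6 to 37.9) and 31.8 (21.6 to 45.2) in the next 500 bp on either side, so the bins of the promoter window differed among themselves. The bin from 4500 to 5000 bp downstream reached 62.1 (41.6 to 89.2). Of all members, 46 were within 200 bp of a start.

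**Figure D3:**
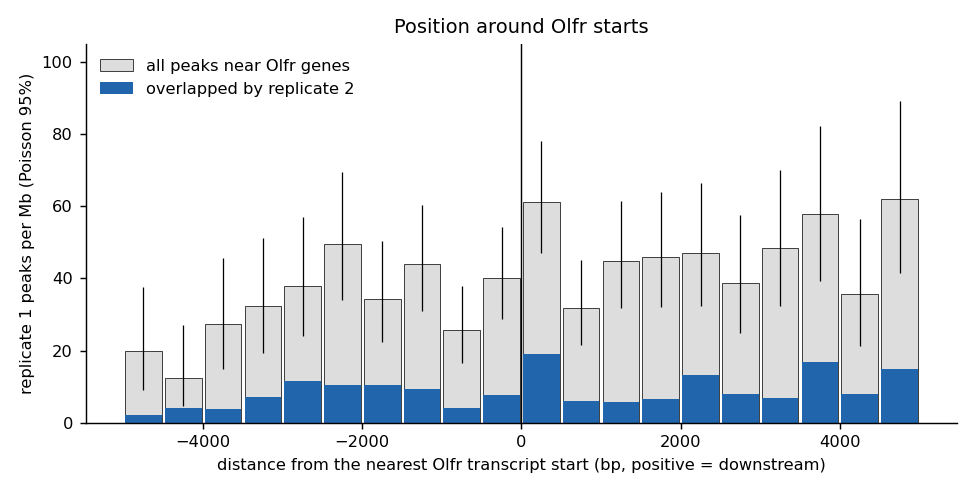
Replicate 1 peaks near Olfr genes per Mb of Olfr footprint in 500 bp bins of distance from the nearest Olfr transcript start (bp, positive downstream), all with exact Poisson 95% intervals (grey) and overlapped by replicate 2 (blue). The bin just downstream of the start has 61.1 peaks per Mb, and the bin from 4500 to 5000 bp downstream has 62.1.

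Counted by gene, 104 of 1128 Olfr genes (9.22%, 7.67 to 11.05%) had a promoter peak in replicate 1, against 59.3% of all protein-coding genes. In replicate 2 there were 32 (2.84%), against 50.3%, and 30 genes had one in both lists (2.66%), against 50.3%. Only 14 Olfr genes had a replicate 1 promoter score of 100 or more. Vomeronasal receptor genes of the Vmn1r family, which detect pheromones, had a promoter peak in 8.17% of cases (5.17 to 12.7%) in replicate 1. The share was 2.48% for Vmn2r, 5.71% for the bitter taste receptors (Tas2r) and 73.2% for Zfp genes. It was 8.85% for genes with symbols starting with Krt, such as keratin and keratin-associated protein genes. The intervals of Olfr, Vmn1r, Tas2r and Krt genes overlapped.

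Promoter sequence that recurs in the genome can lose reads, so the share of unique 32-bp words was set beside these counts. Each gene took the highest share among its promoters, and a peak at any of its starts was counted. Of the 396 Olfr genes with 99% or more unique words, 44 (11.1%, 8.38 to 14.6%) had a replicate 1 promoter peak. Of the 287 with 50 to 90% unique words it was 20 (6.97%, 4.56 to 10.5%). Of the 16 genes below 50% none had one, which with so few genes leaves an upper limit of 19.4%. Of the 428 with 90 to 99% it was 40 (9.35%). The share was lower in genes with fewer unique words, but the intervals overlapped. A peak could lie at a less unique start of the same gene, and the part of read loss was not tested.

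Olfr1509 on chromosome 14 had the highest replicate 2 promoter score among Olfr genes, 78, with 137 in replicate 1. A further promoter peak of this gene scored 130 and 41, both inside a hotspot of 2080 bp. Olfr370 on chromosome 8, an Olfr gene with no other within 500 kb, scored 136 and 63 at 171 bp past its start. Olfr646 on chromosome 7 scored 134 and 45 at 802 bp before its start. These peaks were 25.8 kb or more from the start of any protein-coding gene outside the Olfr family. Every annotated protein-coding transcript start was counted, 2444 for the 1128 Olfr genes, so a promoter peak can lie well inside a gene model. Both Olfr1509 peaks lay inside the gene in this way. The promoter peaks given below for Olfr420, Olfr918, Olfr922 and Olfr25 were centred in coding exons.

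Next in replicate 2 score were Olfr872 (119 in replicate 1, 43 in replicate 2), Olfr1415 (122 and 40), Olfr285 (118 and 39), Olfr221 (124 and 36) and Olfr922 (112 and 35). Olfr433 (102 and 31), Olfr420 (111 and 30), Olfr918 (108 and 30) and Olfr328 (118 and 29) followed. Below them came Olfr1221 (93 and 24), Olfr1499 (83 and 19), Olfr463 (102 and 19), Olfr464 (72 and 17), Olfr25 (89 and 16) and Olfr432 (98 and 16). Each pair gives the highest promoter score of the gene in each list, and these can come from different peaks, as for Olfr432. The remaining 11 genes with a promoter peak in both lists scored 10 to 15 in replicate 2. Several of these genes are neighbours. Olfr417, Olfr420, Olfr432 and Olfr433 lie in 1 cluster on chromosome 1, where 4 of 13 genes had a replicate 2 promoter peak. Olfr221 and Olfr1509 lie in a cluster of 8 genes on chromosome 14, of which 4 had one.

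Most receptor genes had no peak nearby. A replicate 1 peak lay in the gene or within 5 kb for 319 Olfr genes (28.3%), against 85.4% of all protein-coding genes, and 809 had none. A peak near several genes was counted for each. There were 182 genes with 1 member, 93 with 2 to 4 and 44 with 5 or more. An overlapped member was found at 116 genes (10.3%), against 74.1% of all protein-coding genes.

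Clusters differed widely. Joining Olfr genes at most 500 kb apart gave 32 clusters of 5 or more genes and 21 groups of 1 to 4 genes. Small groups were richer in peaks than large clusters. Density was 108.8 per Mb (86.1 to 135.6) in groups of 1 to 4 genes, 95.4 in clusters of 5 to 19, 30.4 (25.9 to 35.5) in clusters of 20 to 49 and 28.6 (24.99 to 32.5) in those of 50 or more. Outside the low-scoring runs the values were 108.8, 82.1, 22.2 and 21.6 per Mb. The replicate 2 list gave 33.0 (21.2 to 49.2), 29.2 (23.1 to 36.2), 4.21 (2.64 to 6.37) and 5.84 (4.29 to 7.76) peaks per Mb in the same order, so both lists had several times fewer peaks in clusters of 20 or more genes. Median replicate 1 scores were 62, 56, 35 and 38.

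The cluster with the most members was that from Olfr543 to Olfr692 on chromosome 7, which contains the beta-globin genes. Its 129 genes had 72 members, 43.05 per Mb, of which 17 were overlapped. The largest cluster, from Olfr987 to Olfr1274-ps on chromosome 2, had 227 genes over 5.07 Mb and 67 members, 21.3 per Mb. Its median score was 16, no member scored above 93, and 38 of its members lay in low-scoring runs. Outside the runs it had 9.22 members per Mb with a median score of 29.

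On chromosome 11 the cluster from Olfr30 to Olfr311 had 53 members for 21 genes, 174.6 per Mb, the highest density among clusters of 10 or more genes. Without the 27 in a run it had 85.6 per Mb (55.9 to 125.5). The cluster from Olfr56 to Olfr1380 had 46 members for 19 genes, 111.3 per Mb, of which 28 were counted only because Olfr56 is annotated over 156.5 kb. Introns of that model contain other genes, among them the interferon-induced Ifi47 and Tgtp2. The cluster from Olfr1417 to Olfr1505 on chromosome 19 had 45 members for 66 genes, 45.6 per Mb.

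The cluster from Olfr433 to Olfr220 on chromosome 1 had 29 members for 13 genes, 144.3 per Mb (96.6 to 207.2), with a median score of 82, and 14 of them (48.3%) were overlapped. It was the densest among clusters of 10 or more genes once runs were left out. At the other end, the cluster from Olfr1275 to Olfr1318 on chromosome 2 had 2 members for 39 genes, 3.45 per Mb (0.418 to 12.5). The cluster from Olfr24 to Olfr18 on chromosome 9 had 4 for 37 genes, 6.42 per Mb, and that from Olfr310 to Olfr292 on chromosome 7 had 2 for 15 genes, 8.16 per Mb. The cluster from Olfr1378 to Olfr1375, with 5 genes, had 493.7 members per Mb, but 37 of its 39 members lay in runs and none was overlapped.

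**Figure D4:**
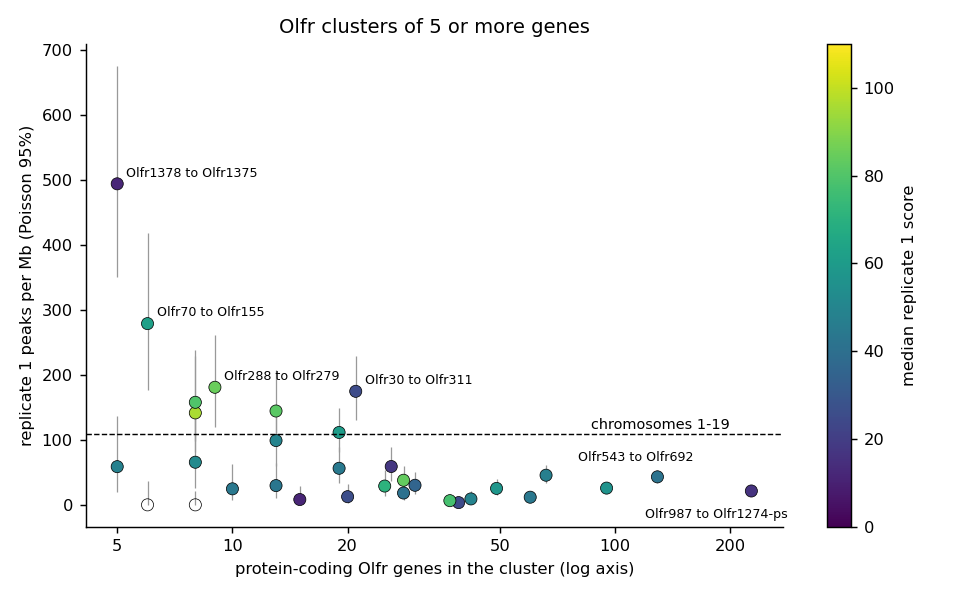
Replicate 1 peaks per Mb of Olfr footprint (genes and 5 kb to each side) for the 32 clusters of 5 or more genes against the number of genes on a log axis, with exact Poisson 95% intervals and colour for the median score; open points have no peak. The dashed line is the density over chromosomes 1 to 19, 109.4 per Mb. Clusters of more than 21 genes all lie below that line, and the densest small cluster, Olfr1378 to Olfr1375, has a median score of 12.

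Within 200 kb of the beta-globin genes, Hbb-bt to Hbb-y at chr7:103812524-103853216, there were 25 Olfr genes, of which 3 had a replicate 1 promoter peak. This stretch held 15 members, with a median score of 51, and 5 were overlapped by replicate 2. The other 57 members of the cluster had a median of 37 and 12 overlapped, but 18 of them lay in the Olfr651 run. The 39 outside the run had a median of 54 and 12 overlapped (30.8%), against 33.3% near the globin genes. Strong members lay on both sides. The peak 1410 bp from Olfr67 and 19.3 kb outside the Hbb-bt end scored 128 and 41 and holds a GATA word. On the Hbb-y side, the peak 57.0 kb away near Olfr65 scored just below it in replicate 1 and 40 in replicate 2, and a peak at 60.0 kb with a GATA and a CTCF word scored 90 and 15.

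Further out, a pair of overlapping peaks near Olfr633, 89.6 and 89.7 kb from Hbb-y, scored 54 and 106 and shared a replicate 2 peak of 22. The remaining 10 members were absent from replicate 2 and scored 26 to 77. They lay near Olfr628 (34), Olfr67 (38, 45 and 77), Olfr66 (59 and 44), Olfr633 (33 and 40), Olfr638 (26) and Olfr642 (51). The weakest of them, near Olfr638, Olfr633 and Olfr628, were 82.4 kb or more from the globin genes. Scores did not simply fall with distance, since the peaks of 38 and 45 lay 18.2 kb away and the peak of 51 lay 198 kb away.

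**Figure D5:**
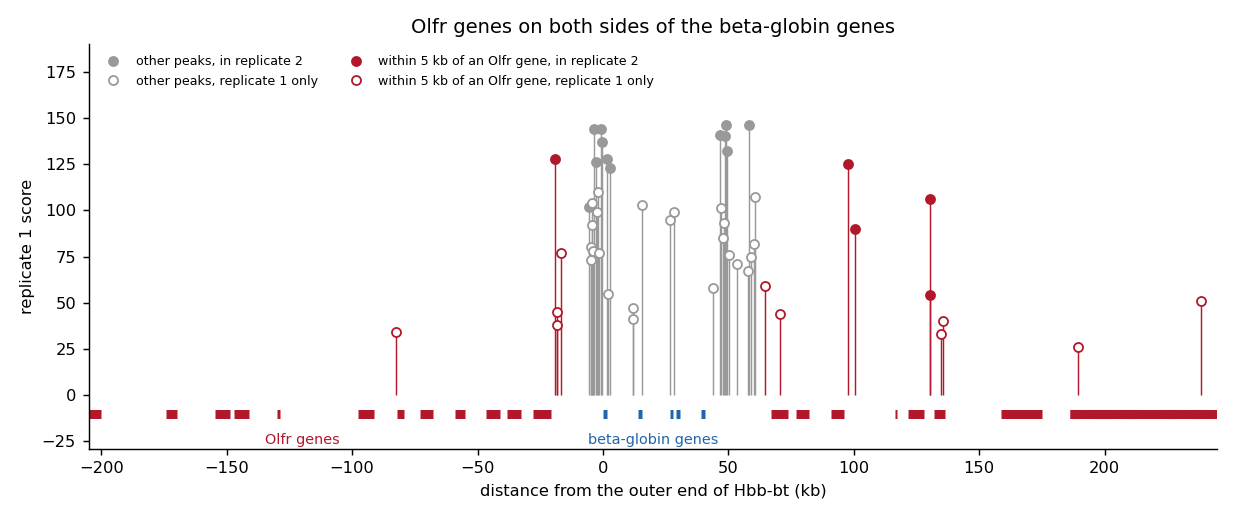
Replicate 1 peaks within 200 kb of the beta-globin genes by distance in kb from the outer end of Hbb-bt; height is the replicate 1 score, red marks peaks within 5 kb of an Olfr gene, grey other peaks, and filled points were overlapped by replicate 2. Bars below are Olfr genes (red) and globin genes (blue). Of the 15 red peaks, 5 are filled, and the highest, at 128, lies 19.3 kb outside Hbb-bt.

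Base composition and short words were compared over 150 bp around each centre, with all replicate 1 peaks of these chromosomes beside them. Median GC was 45.3% in members and 48.0% in all peaks, and 38.6% of members had no CpG, against 24.4%. GATA words were in 20.9% of members (18.1 to 24.0%) and 20.5% of all peaks. Among overlapped peaks the shares were 28.7% (22.5 to 35.9%) and 23.8%. KLF words were rarer in members, at 13.0% (10.7 to 15.6%) against 18.2%, and so were EBF words, at 2.05% (1.24 to 3.35%) against 4.06%. LHX2 words, which are rich in A and T, were in 11.5% of members (9.35 to 14.0%) against 8.005%, but in 3.64% (1.42 to 8.98%) of members scoring 100 or more, against 6.22% of all such peaks. AP-1 words (7.91% against 8.23%), CTCF words (3.82% against 4.13%) and E-boxes (CANNTG, 55.5% against 55.8%) were about as frequent as in all peaks. Members and all peaks differ in GC, whose part in these shares was not tested.

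Other genes of the olfactory system were read from promoters, in a list by role. The shares over all protein-coding genes, 59.3% in replicate 1 and 50.3% in replicate 2, are the background for these counts. Of 11 signalling genes, 3 had a promoter peak in replicate 1 and 2 in replicate 2. Ric8b, a guanine nucleotide exchange factor for the olfactory G protein, scored 149 and 103, the phosphodiesterase gene Pde1c 87 and 10, and Gnal, the G protein alpha subunit, 71 in replicate 1. The adenylate cyclase Adcy3 and the channel subunits Cnga2, Cnga4 and Cngb1 had none. None of 3 receptor trafficking genes, Rtp1, Rtp2 and Reep1, had one. Of 17 genes for receptor choice and heterochromatin, 13 (76.5%) had a promoter peak in replicate 1 and 12 (70.6%) in replicate 2. They included Ldb1 (146 and 59), Ebf1 (121 and 35), the demethylase gene Kdm1a (128 and 45), the lamin B receptor gene Lbr (148 and 72) and the methyltransferase gene Setdb1 (146 and 98). Lhx2, Ebf2, Ebf3 and Emx2 had none. Many of the genes with a peak are widely expressed chromatin genes.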

How the data were processed

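DNase-seq peak lists of MEL cells were used in mm10, per the labels. The score of each peak is the authors' value in the signal column, deposited as a whole number from 1 to 150. Hotspots were deposited with a −log10 q-value, capped at 100. Per the deposited notes, replicate 1 regions were called on the merged alignment of its libraries. The aligner, the caller and the read numbers are not given in the sources used here. Depth is therefore unknown.

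Exact repeats were dropped, 67 in replicate 1 and 7 in replicate 2, none of them a member. Genes came from GENCODE M21 basic and sequence from RefSeq GRCm38.p6. Python 3.11.15, numpy 2.4.6, pandas 2.3.3, scipy 1.17.1, numba 0.67.0 and matplotlib 3.10.9 were used. Word uniqueness over the genome was computed for all members and for the promoters of all Olfr genes but 1. Intervals are Wilson for shares, exact Poisson for densities and order-statistic for medians, at 95%. The overlap, position, motif and word code was tested on simulated data.

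The members, lists and alternatives were chosen with earlier results of these data known. Named peaks and genes were the 10 highest members in each list's score, the 10 highest at Olfr promoters, up to 20 genes with promoter peaks in both lists, clusters by members and density, members near beta-globin and peaks at the 5 kb limit. Runs, the genes named within lists and clusters of under 10 genes were named after their values were seen.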

Additional observations from a re-analysis of the deposited data

How the results depend on the processing

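Of 55 alternative values, 32 stayed inside the 95% interval of the reported value or, for counts, within 1.5 times of it, and 23 did not. With the replicate 2 list in place of replicate 1 there were 174 peaks, 93.1% overlapped by the other list, a median score of 21, 32 genes with a promoter peak and 10.4 peaks per Mb. With the higher-scoring 50% of the list there were 220 peaks, 61.4% overlapped (56.6% of all such peaks), a median of 99.5, 16.4% at Olfr promoters, 28 genes with a promoter peak and 13.1 peaks per Mb. With the flank at 0, 1 and 10 kb there were 340, 432 and 995 peaks, of which 36.2%, 37.5% and 16.3% were at Olfr promoters. With promoters of 500 and 2500 bp those shares were 14.5% and 49.8%, and 189 genes had a peak at 2500 bp. Centres within 500 bp gave an overlap of 27.0%. Leaving out the low-scoring runs, an alternative chosen after seeing the data, gave 29.1% overlapped, a median of 56 and 35.6 peaks per Mb. Leaving out Olfr genes longer than 100 kb, also chosen after seeing the data, left 704 peaks and moved no value beyond its interval. Cluster numbers were 33 and 29 at gaps of 250 and 1000 kb. No paired analysis was possible because each biological replicate has 1 list and no test was run.

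Unknown depth limits what an absent peak means. The replicate 2 list is shorter, so a missing partner does not show that a site was closed there.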

Other observations

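Olfr genes outside the rule were looked at too. The 7 protein-coding Olfr genes on the X chromosome had 7 replicate 1 peaks within 5 kb, with a median score of 31 and a maximum of 39, and no replicate 2 peak. This was 52.0 per Mb, and the density over the whole X chromosome was not computed. The 271 Olfr pseudogenes on chromosomes 1 to 19 had 144 replicate 1 peaks, 47.1 per Mb, of which 85 were not near a protein-coding Olfr gene and reached a score of 139. Hotspots touching a member, counted once for each member, had a median width of 284 bp. The median over all replicate 1 hotspots, each counted once, was 286 bp, so these widths are not like for like. A hotspot at the cap of its q-value held 44.7% of members, against 63.5% of all peaks. The replicate 2 list had 12 peaks near Olfr genes with no replicate 1 partner, the highest scoring 28 at Olfr417 and 23 at Olfr524.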
